A study of Mus musculus with 10 samples.

Results

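Among Ly6C+ blood monocytes, a minority of cells carried messenger RNA of several interferon-inducible genes at once. These interferon-high cells were defined by their own counts: at least 1 UMI (1 molecule of RNA, counted by its barcode) in 3 or more of the 5 genes Ifit1, Ifit2, Ifit3, Rsad2 and Cxcl10. They numbered 132 of 1797 Ly6C+ monocytes, 77 of 931 in dataset 1 and 55 of 866 in dataset 2, among 14687 cells of all populations that passed the filters. They were set against 1419 Ly6C+ monocytes with no UMI in any of the 5 genes (zero class, 722 and 697 cells), and the 246 cells with 1 or 2 of the genes formed a middle class (132 and 114 cells). Because the 5 genes chose the cells, their values are a description and were not tested. The classes are ranges of a per-cell count and not cell types.

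All mice were female and of the C57BL/6Rj strain. Blood was pooled from 20 mice for dataset 1 and 18 mice for dataset 2, all of which had received clodronate liposomes, a treatment that depletes phagocytes, intravenously 9 days earlier, so the Ly6C+ monocytes have no untreated counterpart here. Ly6C+ monocytes were sorted among CD45+ blood cells with high CD115 on Ly6C protein, next to CD43+ monocytes and to cells negative for both (DN blood cells), while LysoDCs and conventional type 2 dendritic cells (cDC2s) came from Peyer's patches of 30 and 20 untreated mice. Each population carried a hashtag, an antibody with a DNA barcode, which was added after the sort in dataset 1 and before it in dataset 2, and Ly6C+ monocytes of each dataset come from 1 library. Each dataset is thus 1 pool of mice, and all comparisons of classes rest on 2 pools.

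Type I interferons act through the receptor subunits IFNAR1 and IFNAR2, the kinases JAK1 and TYK2 and a transcription factor complex that includes STAT2 and IRF9, which binds interferon-stimulated response elements in promoters and switches on antiviral genes. Ly6C+ monocytes are the circulating, inflammatory-type monocytes that leave the marrow, enter tissues and can also become the patrolling, Ly6C-low CD43-high monocytes of blood. IFIT proteins bind foreign RNA, RSAD2 (viperin) makes a chain-terminating nucleotide, and CXCL10 is a chemokine that draws T cells and NK cells through CXCR3.

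The promoters of the genes that carried the pattern are shown for the letters they share. The stretches are from RefSeq promoter windows (GRCm38.p6, 250 bases before to 50 after each start), written 5′ to 3′ on the strand of the gene, with capitals for a run of GAAA, any 2 bases and GAAA, or its reverse complement TTTC, any 2 bases and TTTC, a core that response elements for interferon share.
Ifit1 (chr19:34640760-34640838, plus strand): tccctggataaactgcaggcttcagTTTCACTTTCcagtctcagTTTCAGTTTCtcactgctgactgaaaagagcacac
Ifit3 (chr19:34583348-34583441, plus strand): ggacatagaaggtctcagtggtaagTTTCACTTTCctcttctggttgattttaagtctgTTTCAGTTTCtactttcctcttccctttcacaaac
Ifit3b (chr19:34607744-34607837, plus strand): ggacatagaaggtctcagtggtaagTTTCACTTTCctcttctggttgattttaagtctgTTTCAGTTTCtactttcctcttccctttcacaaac
Rsad2 (chr12:26456538-26456597, minus strand): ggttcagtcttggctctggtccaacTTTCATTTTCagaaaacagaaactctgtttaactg
Cxcl10 (chr5:92349068-92349127, minus strand): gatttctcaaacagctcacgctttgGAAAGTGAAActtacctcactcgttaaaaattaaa
Isg15 (chr4:156200850-156200921, minus strand): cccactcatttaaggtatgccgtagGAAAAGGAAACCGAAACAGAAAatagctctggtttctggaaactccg

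The Ifit1 and Ifit3 stretches hold 2 matches each, and Isg15 holds 3 that overlap. The Ifit3 and Ifit3b stretches are identical over 94 of 94 bases. Ifit2 and Oasl1 had no match in their windows, which says only that these letters are not there. Of all 27025 genes in the table, 3.99% had a match.

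The 5 genes lie at 3 places in the genome (GRCm38, GENCODE M21): Ifit2 (chr19:34550694-34576419), Ifit3 (chr19:34583531-34588731) and Ifit1 (chr19:34640871-34650009) near each other on chromosome 19, with Ifit1bl1 and Ifit3b between Ifit3 and Ifit1, Rsad2 on chromosome 12 (chr12:26442746-26456452) and Cxcl10 on chromosome 5 (chr5:92346638-92348889). In the high class of datasets 1 and 2, Ifit3 had 1221 and 718 CPM (UMIs per 1000000 UMIs of the class sum), and Ifit1 had 391 and 482 CPM. Ifit2 had 543 and 354 CPM there, and Rsad2 had 644 and 627 CPM. Cxcl10 had 771 and 791 CPM. The 5 genes did not mark the same cells equally: Ifit3 was found in 97.4% and 92.7% of high cells and Rsad2 in 90.9% and 92.7%, but Cxcl10 in 46.8% and 74.5%. In CD43+ monocytes each of the 5 genes by itself had a UMI in 0.315% to 2.56% of cells. None of the 5 had a UMI in 622 of 663 and 933 of 952 of these cells, or 93.8% and 98.0%. Their median depth was 2963 and 2312 UMIs, against 4409 and 5920 in Ly6C+ monocytes. In dataset 2 they also come from another library, so these values cannot give the level of stray RNA among Ly6C+ monocytes.

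**Figure D1:**
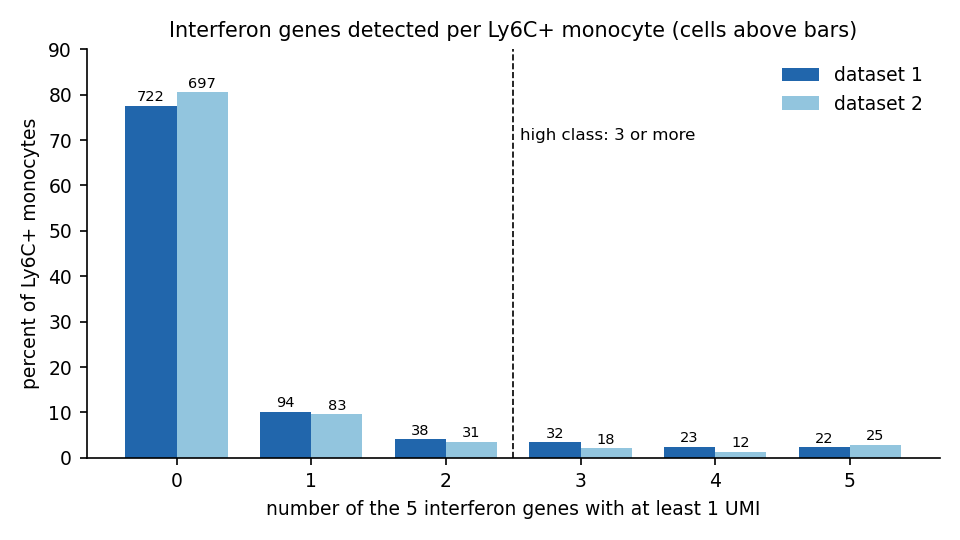
Percent of Ly6C+ monocytes (y axis) by the number of the 5 interferon genes with at least 1 UMI (x axis), for datasets 1 and 2, with cell numbers above the bars; the dashed line marks the lower limit of the high class. Most cells had none of the genes (722 and 697), and all 5 were found in 22 and 25 cells.

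Near the limit, 38 and 31 cells had 2 of the 5 genes and 32 and 18 had 3, and 22 and 25 cells had all 5. The classes were of like depth: the median was 4540 UMIs per cell in the high, 4493 in the middle and 4369 in the zero class of dataset 1, and 5748, 6038 and 5892 UMIs in dataset 2. No cell exceeded 3 times the median depth of its dataset, and no barcode of a Ly6C+ monocyte occurred in both datasets. In dataset 1 the Ly6C+ hashtag gave a median of only 33.1% of hashtag UMIs in high and 32.5% in zero cells, against 98.9% in both classes of dataset 2. Marker RNA was set beside the label: at least 1 UMI of Ly6c2 was found in 97.4% and 94.5% of high cells and in 84.8% and 81.2% of zero cells. The summed level of the 12 Ly6C-high monocyte markers was 16295 and 21057 CPM in high and 13837 and 16364 CPM in zero cells, against 3806 and 4888 CPM in CD43+ monocytes. Some of these markers, Ly6c2 among them, were themselves higher in the high class, so their level in high cells cannot check the label by itself. Of zero cells, 32 of 722 and 93 of 697 had 2 or more CD43-type genes.

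Interferon-high cells made up 8.27% of Ly6C+ monocytes in dataset 1 (exact Clopper-Pearson 95% interval 6.58% to 10.2%) and 6.35% in dataset 2 (4.82% to 8.19%). By the same rule they were 3.22% and 2.78% of DN blood cells, 1 of 663 and 1 of 952 CD43+ monocytes, 1.54% to 3.38% of the 4 LysoDC populations of dataset 1, and 1 of 970 and 1 of 261 cells of its 2 cDC2 populations. These intervals cover counting error only, and 1 pool of mice per population and dataset leaves no test. Depth differed, with a median of 4409 UMIs in Ly6C+ monocytes, 2963 in CD43+ monocytes and 10551 to 14279 in LysoDCs of dataset 1. With every cell thinned to 2000 UMIs and shallower cells left out (30 and 5 Ly6C+ monocytes), the shares were 5.11% and 3.83% of Ly6C+ monocytes and 1.75% and 0.599% of DN blood cells. LysoDC populations then had 0.223% to 0.997%, and CD43+ monocytes 1 of 574 and 0 of 650 cells, with upper interval limits of 0.967% and 0.566%. Ly6C+ monocytes had the highest share of the populations measured in both datasets, with and without thinning.

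**Figure D2:**
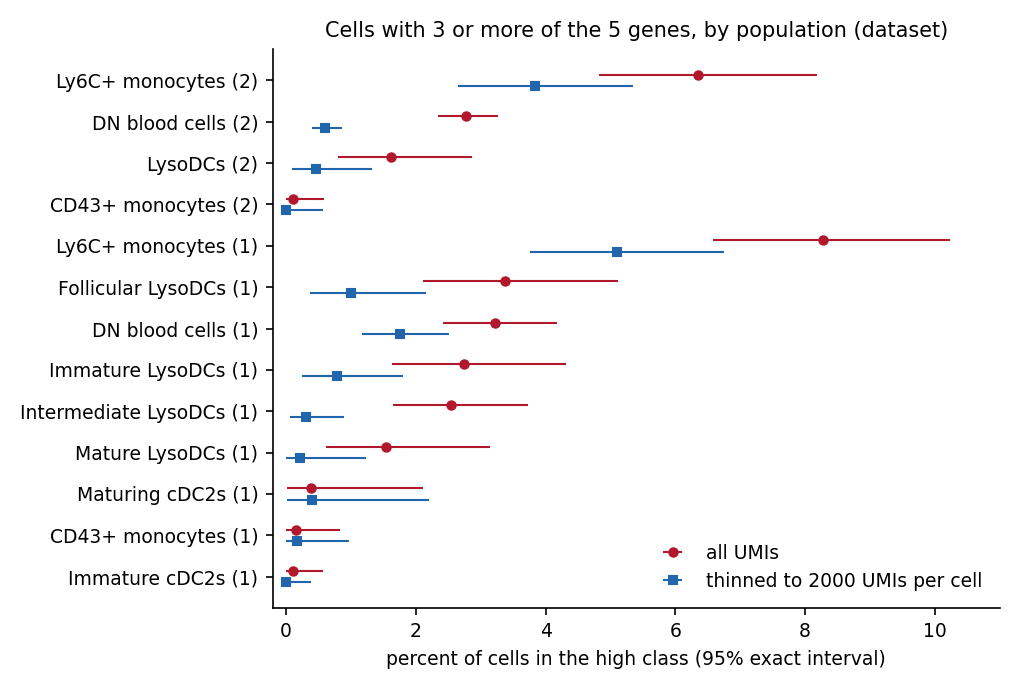
Percent of cells in the high class (x axis) in each sorted population, with the dataset in brackets; circles use all UMIs, squares use 2000 UMIs per cell, and bars are exact 95% intervals for counting error. Ly6C+ monocytes lead in both datasets, at 8.27% and 6.35%, or 5.11% and 3.83% when thinned.

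Within single cells, the 5 genes went with the rest of the interferon genes. Over 64 other interferon-inducible genes of the lists used here, counted per 2000 UMIs of a cell, the median was 35 UMIs in high, 16 in middle and 8 in zero cells of dataset 1, and 32, 12 and 6 UMIs in dataset 2. In dataset 1 the medians for cells with 0, 1, 2, 3, 4 and 5 of the genes were 8, 15, 23.5, 33, 34 and 44 UMIs. The steps between 3 and 4 genes were small in both datasets, with medians of 29.5 and 28 UMIs in dataset 2. Of high cells, 92.1% and 80.0% lay above the 95th percentile of zero cells (21 and 18 UMIs), as did 30.2% and 22.8% of middle cells. The ranges overlapped: high cells ran from 9 to 84 UMIs in dataset 1 and from 6 to 98 in dataset 2, and zero cells reached 40 and 41. Cells are not replicates, and these medians are given without a test. The lists include Ifit3b, a near-copy of Ifit3, and medians without it were not taken. Cxcl10 within the high class did not follow these genes in 1 direction: cells with it had a median of 41 UMIs against 33 without it in dataset 1, but 29 against 36 in dataset 2.

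**Figure D3:**
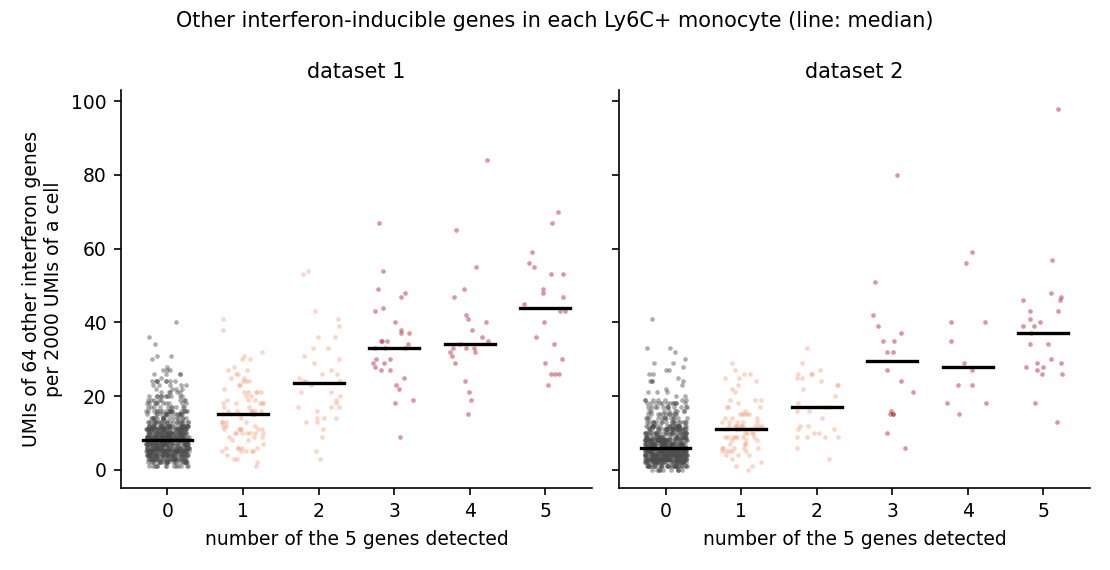
UMIs of 64 other interferon-inducible genes per 2000 UMIs (y axis) in each Ly6C+ monocyte, by the number of the 5 genes detected (x axis) and dataset; points are cells, black lines medians, and colours mark the zero (grey), middle (orange) and high (red) classes. Medians run from 8 to 44 in dataset 1 and from 6 to 37 in dataset 2.

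Across the transcriptome, more genes were called higher than lower in the high class, among them most tested members of the interferon lists described below. Sums of raw counts per class and dataset were tested in edgeR with dataset as a block, without the 5 genes that chose the cells. Of 6370 genes tested, 12.1% passed at an adjusted p under 0.05, 558 of them higher (8.76%) and 211 lower (3.31%), with a median log2 fold change over all genes of -0.05. Of these, 555 and 210 had the same sign in both datasets. Higher genes moved further: 331 of 558 by 1 log2 unit or more and 136 by 2 or more, against 69 and 14 of the 211 lower genes. Part of this was set by the filter, which asked for 15.3 CPM in 2 of the 6 sums: 295 genes reached it only through the high class, of which 78 were called higher and 0 lower, and of those that reached it only through the zero class 18 were called lower and 0 higher. Without both kinds, 480 of 5772 genes were higher (8.32%) and 193 lower (3.34%), 253 and 51 of them by 1 log2 unit or more and 80 and 3 by 2 or more. Genes that vary from cell to cell along with the 5 genes differ between these classes through the choice of cells, and the counts describe which genes do so. After the dataset block had taken up differences between the pools, the remaining spread was near counting error (biological coefficient of variation 0.036, 2 residual degrees of freedom). The prior degrees of freedom had an infinite median, so p-values rest on a spread shared between genes and measure these pools only. The number of lower genes depended on the model: it was 6 without the dataset block and 18 with DESeq2, against 241 and 347 higher.

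Among genes with at least 50 CPM in the high class of each dataset, the largest rises outside near-copies of the 5 genes were those of Oasl1, an antiviral relative of the oligoadenylate synthetases, and of Isg15, a ubiquitin-like protein that is conjugated to others. Isg15 (chr4:156199424-156200818) stood at 1587 and 1499.5 CPM in the high class, 392 and 248 CPM in the middle class and 75.1 and 54.1 CPM in the zero class of datasets 1 and 2. The lowest high value was far above the highest zero value, and the log2 fold change was 4.68 (SE 0.09). Oasl1 went from 5.37 and 2.16 CPM in the zero class to 146 and 130 CPM in the high class (log2 5.31, SE 0.32), but passed the filter through the high class alone, as did Slfn9, Phf11a, Gbp5, Ifit3b and Ifit1bl1, so that a rise of these genes was favoured by the filter. Usp18, which removes ISG15 and damps receptor signalling, had 355 and 291 CPM in high and 28.1 and 11.1 CPM in zero cells (log2 4.17, SE 0.17). The other named members of the 12 largest rises were Slfn9, Phf11d, Phf11a, Trim30c, Ifi206, Cmpk2 and Gbp5, with log2 fold changes from 3.76 to 4.67. Cmpk2, a mitochondrial nucleotide kinase, is the neighbour of Rsad2 on chromosome 12. Ifit3b and Ifit1bl1 had the largest values of all (log2 7.97 and 7.37), but Ifit3b is a near-identical copy of Ifit3 and Ifit1bl1 a relative of Ifit1, so their reads are uncertain and they are no independent measure. All 12 kept their call under every setting in which they were tested.

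**Figure D4:**
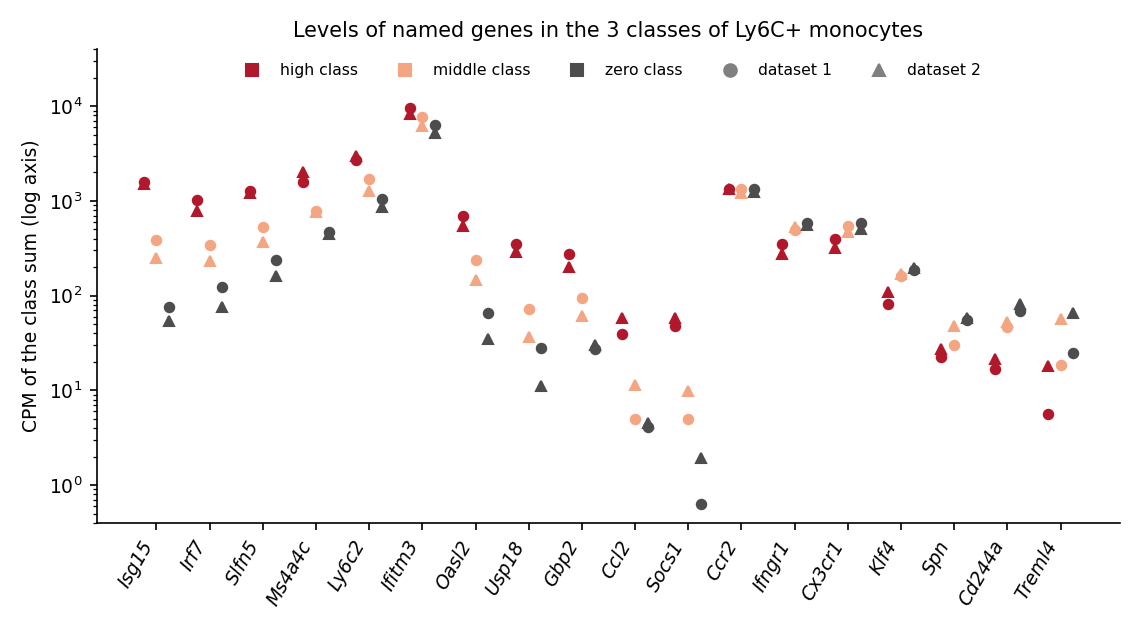
CPM of the class sum on a log axis for 18 named genes in the high (red), middle (orange) and zero (grey) classes of Ly6C+ monocytes; circles are dataset 1 and triangles dataset 2. Middle-class points of Isg15, Irf7 and Usp18 lie between the others in both datasets, and Ccr2 lies between 1218 and 1342 CPM in all 6 sums.

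Antiviral effector genes rose nearly throughout their lists. Of 36 IFIT relatives and other effectors, 31 passed the filter on low counts, 9 of them through their level in the high class alone. Of the other 22, 21 were higher, with a median log2 fold change of 2.40 over the 22. Slfn5, a Schlafen family gene, had 1281 and 1209 CPM in high against 240 and 162 CPM in zero cells (log2 2.74, SE 0.08). Ifi44 and Tnfsf10, the death ligand TRAIL, rose from a few UMIs (log2 5.36 and 4.68) and are 2 of those 9, while Trim5 did not pass (log2 -0.17). Of 6 tested genes on the oligoadenylate list, 5 were higher, but Oasl1, Oas2 and Oas1a had passed through the high class alone. Of the remaining 3, 2 were higher, among them Oasl2, with 698 and 548 CPM against 65.0 and 35.1 CPM. The 6 genes of ISG15 conjugation were all higher (median 3.17), with Usp25 the least and Isg15 the most changed.

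Most sensors of foreign RNA and DNA rose, while 2 of their adaptors did not pass. Of 14 tested sensors and adaptors, 10 were higher, or 9 of 12 without Ddx60 and Mavs, which passed the filter through the high class alone (median 2.01 over the 12), including the RNA sensors Ddx58 (RIG-I) with 341 and 227 CPM against 42.9 and 25.5 CPM (log2 3.15, SE 0.16), Ifih1 (MDA5, log2 2.68, SE 0.17) and Zbp1 (log2 2.41, SE 0.11), and the DNA sensor Cgas (log2 1.82, SE 0.37). The adaptors Mavs and Tmem173 (STING) had log2 fold changes of 0.63 (SE 0.60) and 0.28 (SE 0.22), and Tlr7, an endosomal RNA sensor, had -0.01 (SE 0.29); none of these passed. In the Ifi200 family, nuclear DNA-binding proteins, all 11 tested members of 14 listed were higher, and 9 of 9 without Ifi208 and Ifi214, which passed the filter through the high class alone (median 2.66), for example Ifi204 with 858 and 1020.9 CPM against 172 and 167 CPM. Of 17 guanylate-binding proteins and immunity-related GTPases, which attack vacuoles of intracellular microbes, 10 were tested and all were higher, as were 8 of 8 without Gbp5 and Gvin1, which passed the filter through the high class alone (median 2.90). Ifi47 had 557 and 488 CPM in high and 51.1 and 48.1 CPM in zero cells. Among 5 tested targets often used for interferon gamma, Fcgr1, the high-affinity IgG receptor, rose (554 and 536 against 100.1 and 81.0 CPM, log2 2.69, SE 0.11), while Ciita, Acod1, Wars and Icam1 did not pass.

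**Figure D5:**
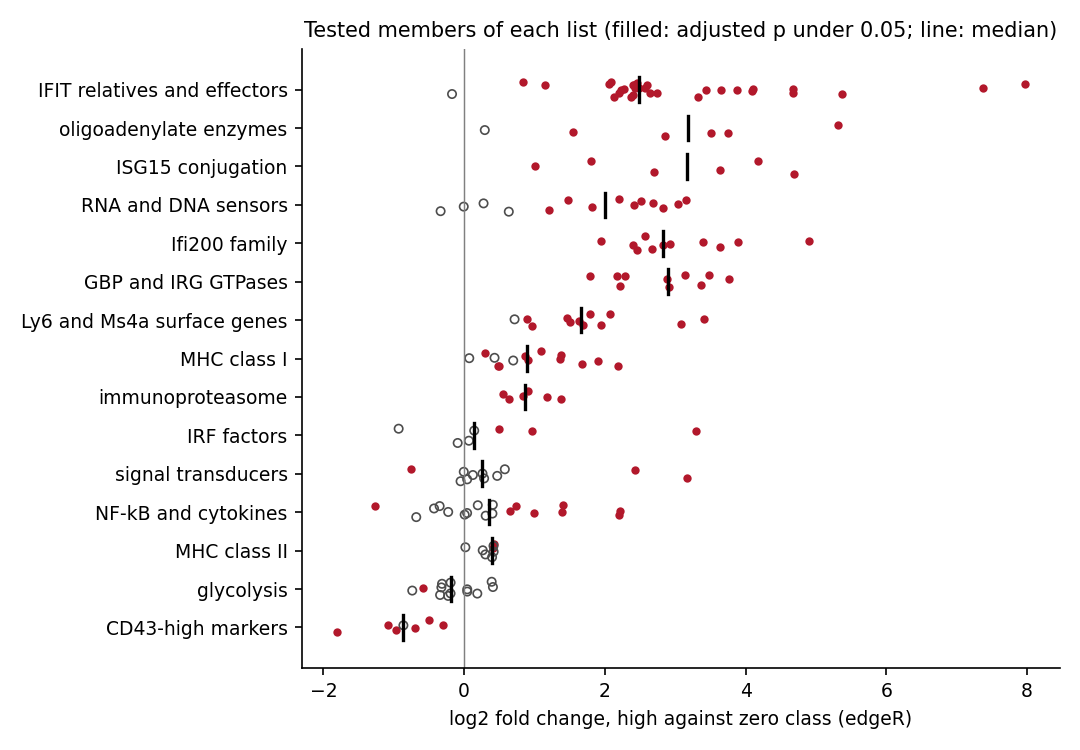
Log2 fold change of the high against the zero class (x axis, edgeR, 2 pools) for the tested members of 15 lists; filled red points had an adjusted p under 0.05, open points did not, and lines are medians. Lists of effectors, oligoadenylate enzymes, ISG15 conjugation, Ifi200 and GTPase genes have medians from 2.48 to 3.18 over all tested members, those that passed the filter through the high class alone included; glycolysis and CD43-high markers lie below 0.

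The signalling chain itself was higher at only some of its links. Stat2 had 312 and 230 CPM in high against 40.7 and 24.3 CPM in zero cells (log2 3.17, SE 0.16). Irf9, its partner in the complex, did not pass (107 and 103 against 100.1 and 63.0 CPM, log2 0.47, SE 0.19, edgeR adjusted p 0.102). The receptor genes Ifnar1 and Ifnar2 had log2 fold changes of 0.04 (SE 0.22) and 0.12 (SE 0.13). Ifngr1, the ligand-binding chain of the interferon gamma receptor, fell from 581 and 561 to 352 and 276 CPM (log2 -0.76, SE 0.10), and kept that call under all 21 other settings. Of 7 interferon regulatory factors, Irf7, the amplifier of type I interferon expression, rose most (1030.1 and 785 against 124 and 75.5 CPM, log2 3.29, SE 0.10), Irf1 and Irf2 rose by log2 0.97 and 0.50, and Irf3, Irf4, Irf5 and Irf8 did not pass. Of 8 tested feedback genes, Usp18, Socs1 and Nlrc5 were higher, but the last 2 had passed the filter through the high class alone, which leaves 1 of 6. Socs1, an inhibitor of JAK kinases, rested on 17 and 19 UMIs in the high and 2 and 8 in the zero class (log2 5.34, SE 0.56).

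No UMI of 20 interferon ligand genes was found in any high or middle cell, where a count of 0 allows up to 8.44 and 9.09 CPM in the high class, and 2 UMIs occurred in zero cells of dataset 2. Among monocyte chemokines, 4 of 13 were tested: Ccl2, which recruits CCR2+ monocytes, rose (39.4 and 57.6 against 4.10 and 4.57 CPM, 14 and 19 UMIs in the high class), though it had passed the filter through the high class alone. Ccl9 rose by log2 0.38 and Ccl6 fell by 0.31 on the log2 scale, and each lost its call under 5 of 21 other settings, among them the fit without the dataset block and DESeq2. Of 18 tested inflammatory genes, 7 rose, or 5 of 16 without Il1rn and Tnfaip3, which passed the filter through the high class alone. They included Il18 (149 and 176 against 38.2 and 36.6 CPM), Il15, Casp1 and Casp4, while Clec4e fell. Il1b, the interleukin 1 beta gene, had 42.2 and 24.2 CPM in high and 64.1 and 50.5 CPM in zero cells and did not pass (log2 -0.68, SE 0.29). Of 13 tested cell death genes 4 rose, among them Daxx (270 and 236 CPM in the high class, log2 2.56, SE 0.16), Tnfsf10 and Mlkl. Tnfsf10 and Mlkl had passed the filter through the high class alone, which leaves 2 of 11, whereas Bax, Bak1, Ripk1 and Fas did not pass, with log2 values of 0.29 or less.

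Genes of antigen presentation by class I rose. Of 14 tested class I genes, 11 were higher (median 0.89): Tap1, a peptide transporter subunit, had 315 and 227 against 109 and 73.1 CPM (log2 1.67, SE 0.14), and H2-T22 and H2-T23 had log2 fold changes of 1.90 and 1.37. The classical genes H2-K1 and H2-D1 rose less, by log2 0.50 and 0.30. All 6 immunoproteasome genes were higher (median 0.87), from Psme1 at 0.55 to Psmb9 at 1.37. On the class II side 2 of 8 passed, H2-DMa and Ctss, while the invariant chain gene Cd74 did not: it had 3979.6 and 4156 CPM in high and 3854 and 2753 CPM in zero cells of the 2 datasets (log2 0.42, SE 0.20, edgeR adjusted p 0.475). These class II calls depended on the setting: H2-DMa lost its call in 7 of 21 other settings, Cd74 gained one in 10, H2-Aa in 4 and H2-DMb1 in 3. Over these settings 0 to 7 class II genes were higher, 7 of 9 without the high or the zero class of dataset 1, and class I had 5 to 12 higher genes; the difference between both lists was not tested. Ifitm3, which blocks viral entry, rose from 6289.95 and 5162 to 9577 and 8270 CPM (log2 0.74, SE 0.04), whereas Ifitm2 had log2 -0.09 (SE 0.06).

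Surface genes included the gene of the sort marker. Of 12 tested Ly6 and Ms4a surface genes, 11 were higher, or 9 of 9 without Ly6a, Siglec1 and Ms4a4a, which passed the filter through the high class alone (median 1.63). Ly6c2, which encodes Ly6C, had 2738 and 2996 CPM in high, 1712 and 1282 CPM in middle and 1045 and 867 CPM in zero cells (log2 1.69, SE 0.06), and lost its call only when the other populations were added to the model. Ms4a4c had 1604 and 2015 against 472 and 447 CPM (log2 2.07, SE 0.07), and Siglec1, the sialoadhesin gene, 33.8 and 42.4 against 6.95 and 2.89 CPM. The defining genes of Ly6C+ monocytes went both ways. Of 12 markers 4 rose, among them Ly6c2, Ms4a4c and Plac8, against 8.76% of all genes tested. Another 3 were lower, against 3.31% of all genes: Fn1, S100a4 and S100a6 fell by 0.50, 0.21 and 0.16 on the log2 scale. Ccr2, the receptor for marrow exit, had 1326 and 1342 against 1339 and 1237 CPM and did not pass (log2 0.15, SE 0.06, edgeR adjusted p 0.117). Ly6c2 and Ms4a4c are also on the list of Ly6 and Ms4a surface genes.

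Genes of CD43-high monocytes were lower. Of 14 markers 7 were tested and 6 fell (median -0.86): Treml4, a receptor of CD43-high monocytes, had 5.63 and 18.2 CPM (2 and 6 UMIs) in high against 24.6 and 64.9 CPM in zero cells, Spn, which encodes CD43, 22.5 and 27.3 against 55.6 and 58.0 CPM, and Cx3cr1, the fractalkine receptor, 399.6 and 318 against 578 and 504 CPM. Nr4a1, the transcription factor that CD43-high monocytes need, and Pou2f2 were also called lower. Itgal, an integrin subunit, was the sixth call, but was lower in dataset 2 only (93.9 against 255 CPM, and 127 against 134 CPM in dataset 1), and it lost its call under 9 of 21 other settings. Spn, on 8 and 9 UMIs in the high class, lost its call under 9 of 20 settings. Treml4 lost it under 7 of 21 and Cx3cr1 under 2 of 21. The median UMIs of the 14 markers per cell were 4 and 5 in high, 5 and 7 in zero cells and 22 and 19 in CD43+ monocytes. Cells with 2 or more of 8 CD43-type genes made up 0 of 77 and 3 of 55 high cells, against 32 of 722 and 93 of 697 zero cells. Without those cells 1 of 7 markers was lower; in separate alternatives with all cells, 0 of 7 were lower without the dataset block and 1 of 7 with DESeq2.

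Outside these lists the largest fall among named genes was that of Cd244a, the 2B4 receptor of the SLAM family, with 16.9 and 21.2 CPM in high, 46.9 and 52.2 CPM in middle and 69.5 and 81.8 CPM in zero cells (log2 -1.89, SE 0.33, edgeR adjusted p 2.05e-07). It was lower in both datasets and kept its call under all 21 other settings, on 6 and 7 UMIs in the high class. The transcription factor Klf4 fell from 184 and 194 to 81.6 and 109 CPM (log2 -0.90, SE 0.17), and Hopx from 67.6 and 202 to 28.1 and 96.9 CPM (log2 -1.01, SE 0.21); each lost its call under 3 other settings. The remaining named falls, Agpat4, Fdps, Alcam, Ahr, Smc6, Unc119, Xpr1, Ubash3b and Arl4c, were between -1.44 and -0.93 and each lost its call under 2 to 11 of the 21 other settings. Metabolic and growth lists each held 0 higher genes and 1 lower. These were Ldha of 13 glycolysis genes tested (14 listed), Fdps of 7 cholesterol synthesis genes (15 listed) and Hmgb2 of 3 cell cycle genes (18 listed). Over all genes tested 3.31% were lower, and 1 call among so few tested genes says little against that share. Of 16 immediate early and stress genes, Fosb, Atf3 and Hspa8 rose and Klf2, Klf4 and Nr4a1 fell. The shares over all genes tested were 8.76% higher and 3.31% lower. Under the other settings 0 to 3 of this list were higher and 0 to 3 lower. Klf2 lost its call under 8 of 21 settings, Hspa8 under 3 and Atf3 under 2.

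Markers of other cell types gave few calls. Of 7 plasmacytoid dendritic cell markers, Bst2 and Tcf4 rose (log2 2.05 and 1.25), Irf8 did not, and 3 of the 7 were at 0 in the high class, where the summed level was 1483 and 1284 CPM against 668 and 562 CPM in zero cells. Bst2, tetherin, is also on the effector list. No NK cell marker had a UMI in any of the 3 classes, T cell and platelet markers summed to 3.03 CPM or less in each, and erythroid markers reached 19.7 CPM in high cells of dataset 1 and 0 in dataset 2. B cell markers had 242 and 364 CPM in high and 239 and 183 CPM in zero cells, from Ighm, which passed, with 5 of 7 at 0. Ighm lost its call under 6 of 21 other settings. Neutrophil (2 tested of 10), neutrophil-like monocyte (2 of 11), conventional dendritic cell (2 of 6) and tissue macrophage and LysoDC markers (5 of 7) had no call, and 1 of 6 Cd209a-expressing monocyte markers was called higher. This was Clec10a, with log2 0.23 in dataset 1 and 1.18 in dataset 2, which lost its call under 9 of 21 other settings; over these settings 0 to 3 of the markers were higher. The macrophage and LysoDC markers summed to 1680 CPM in high and 1696 CPM in zero cells of dataset 1, and 164 and 249 CPM in dataset 2; their part in the results was not tested.

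Cells of the middle class stood between for the interferon genes named in this paragraph. They were chosen by an intermediate count of genes that vary along with these, so this follows at least in part from the rule. It did not hold for every gene: Icam1 had log2 0.50 in the middle and -0.27 in the high class, and passed in neither comparison. Against the zero class 2.45% of the genes passed, 147 of them higher (2.31%) and 9 lower (0.141%), of which 146 and 9 had the same sign in both datasets, and without the dataset block 8, all among the 147, and 0 passed. Among genes with at least 50 CPM in the middle class of each dataset the largest rises were Isg15 (log2 2.32, SE 0.11), Oasl2 (1.97, SE 0.13) and Rtp4 (1.77, SE 0.16), and Irf7 reached 1.56 (SE 0.11). Oasl1, at 26.8 and 12.7 CPM, had log2 2.41 (SE 0.46). The medians were 1.08 for effectors (23 of 31 higher), 1.33 for the Ifi200 family (10 of 11), 1.22 for the GTPases (6 of 10) and 0.48 for class I genes (6 of 14). Of the tested genes, 9 effectors, 2 Ifi200 genes and 2 GTPases had passed the filter through the high class alone. Middle-class counts without them were not taken. The CD43-high list had 0 calls of 7 here, Fn1 and Ccl6 were lower, and both comparisons share the zero class, so their values stand side by side only.

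The promoter letters were more frequent among higher genes. Of the 558 higher genes 449 had a promoter in the table, and 18.0% of these (81) held the GAAA pair on either strand, against 3.11% of 161 lower genes and 3.40% of 4527 genes tested and not called. The share was 24.5% among genes higher by 1 log2 unit or more and 41.1% (44 of 107) by 2 or more. Of the 558 higher genes, 78 had passed the filter through the high class alone, as had 56 of the 136 higher by 2 or more. Ifit3b is among them, a rise of these genes was favoured by the filter, and shares without them were not taken. These shares are descriptions, and a match is not a site.

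Few genes could be called different between the high cells of Ly6C+ monocytes and of DN blood cells. A model over 12 sums of both populations tested whether the change from zero to high differed, and 7 of 8688 genes passed (0.0806%). In dataset 2 the DN blood cells come from the libraries of CCR2+ and CCR2- DN cells, and the Ly6C+ monocytes from another. The model held no term for library within a dataset, and the part of library was not tested. For 6 of the 7 genes the log2 fold change was positive in Ly6C+ monocytes and smaller in DN blood cells. Of these, Pttg1, Qpct and Scimp had no called change in DN blood cells, where Qpct had log2 -0.69. The other gene was Hba-a1, a haemoglobin gene that was lower in high than in zero DN blood cells and rested on dataset 1. Isg15 changed by log2 4.74 in Ly6C+ monocytes and 3.92 in DN blood cells, and that difference of 0.82 (SE 0.24) did not pass (edgeR adjusted p 0.405). Of the 5 genes that define the class, Cxcl10 had 335 and 8.84 CPM in high DN blood cells, in 27.8% and 3.62% of them, against 771 and 791 CPM in high Ly6C+ monocytes. In dataset 2 the high DN blood cells without Cxcl10 had a median depth of 8283 UMIs, against 5224 for all DN blood cells, and the part of depth in this comparison was not tested.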

How the data were processed

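Single-cell mRNA and hashtag libraries were counted by the authors. The deposited values are raw UMI counts, from Cell Ranger 6.0.1 per the file headers, while the submitters' processing notes name Cell Ranger 2.0.0 and mm10. They hold 11878 and 13111 barcodes with 91530239 and 81034175 gene UMIs. The 4 libraries of dataset 2 share 1 matrix. Hashtags were called with HTODemux of Seurat 5.3.0 (positive quantile 0.99), which gave 8343 and 8516 barcodes with 1 hashtag; barcodes with several (2422 and 4572) were removed as doublets, and no other caller was run. Both datasets share 37 barcodes. Cells needed 1000 gene UMIs, 500 genes and at most 10% mitochondrial UMIs.

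Raw counts were summed per class and dataset (6 sums) and tested in edgeR 4.0.16 (TMM, filterByExpr, robust quasi-likelihood, two-sided, Benjamini-Hochberg, dataset as a block, since both classes of a dataset come from the same mice and library). The same script was tested on simulated data. DESeq2 1.42.0 was an alternative, and other settings are in the closing section. Genes named were the 12 largest changes each way with at least 50 CPM in the higher class and the same sign in both datasets, up to 4 per list by adjusted p, and some list members chosen after their values were seen. The members and lists were chosen with earlier results of these data known. Of 32285 gene identifiers, 99.6% matched GENCODE M21. Intervals and limits from 3 counts cover counting error only. Counts without the genes that passed the filter through 1 class alone were added after the data were seen. Some genes of the lists are counted but not reported by name here.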

Additional observations from a re-analysis of the deposited data

Results flagged for a closer look

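The change from the zero to the high class differed between Ly6C+ monocytes and DN blood cells for 7 of 8688 genes in edgeR (adjusted p under 0.05, 608 genes at an unadjusted p under 0.05). This comparison was added after the data were seen, and in dataset 2 the populations come from different libraries. Fgl2, a fibrinogen-like protein, had 335 and 354 CPM in high and 56.8 and 53.9 CPM in zero Ly6C+ monocytes, against 179 and 135 CPM and 61.0 and 87.5 CPM in DN blood cells, a difference of 1.70 (SE 0.26) on the log2 scale. Phf11a differed by 2.28 (SE 0.37), Pttg1 by 1.44 (SE 0.24), AW112010 by 1.06 (SE 0.18), Qpct by 2.71 (SE 0.49) and Scimp by 3.94 (SE 0.66). Scimp rested on low levels, with 31.0 and 66.6 CPM in high and 1.58 and 3.85 CPM in zero Ly6C+ monocytes. In DN blood cells it had 38.95 and 16.81 CPM in high and 8.41 and 22.96 CPM in zero cells of datasets 1 and 2. High DN blood cells thus had more Scimp than zero cells in dataset 1 and less in dataset 2. The value for Hba-a1, a haemoglobin gene, was 13.2 (SE 1.91), from log2 -9.60 in DN blood cells and 3.59 in Ly6C+ monocytes, with 137 CPM in zero DN blood cells of dataset 1 and 0.273 CPM in dataset 2, and 0 UMIs in high DN blood cells, so its size depends on the prior count.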

How the results depend on the processing

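The 558 higher and 211 lower genes of the high class became 241 and 6 without the replicate block on dataset (all 241 and 6 were among the 558 and 211), 224 and 55 with classes and sums thinned to 2000 UMIs (2807 genes tested), 296 and 68 with only the sums thinned (3752 genes tested), 332 and 36 with all populations in the model and 347 and 18 with DESeq2. Leaving out 1 sum at a time gave 420 to 540 higher and 79 to 186 lower genes, where a class left with 1 sum is assumed to vary like the others; the lower count was 120 without the high class of dataset 1, 79 without that of dataset 2, and 113 without either zero class. The 147 and 9 calls of the middle class became 8 and 0 without the replicate block (145 and 37 at an unadjusted p under 0.05), 95 and 3 with classes and sums thinned, 72 and 2 with only the sums thinned, and 71 and 0 with DESeq2 (146 and 3 unadjusted). Without the filter 5 were lower, and leaving out 1 sum gave 68 to 157 higher and 3 to 14 lower. The cause of these differences was not tested. The share of high cells was 5.11% and 3.83% after thinning, 12.4% and 9.93% with 2 of 5 genes and 4.83% and 4.27% with 4 of 5.

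Settings added after the data were seen gave 566 and 186 genes with hashtag clusters by k-means, 539 and 177 with only cells that had a Ly6c2 UMI and 556 and 165 without cells with 2 or more CD43-type genes. Of 127 named genes of the high class, 96 were called: 58 kept their call in every setting in which they were tested, 38 lost it at least once and 0 reversed. Of the other 31, 23 were called in none and 8 in at least 1. Over all settings the effector list had 24 to 30 higher genes and 0 lower, class I 5 to 12 and 0, and the CD43-high list 0 higher and 0 to 6 lower. Requiring 90% of hashtag UMIs from the Ly6C+ hashtag left 2 cells of dataset 1, so that setting was not run. The high class holds 355314 and 330105 UMIs, so a gene with no UMI there may have up to 8.44 and 9.09 CPM.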
